A study of Mus musculus with 8 samples.

Results

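Expression of 10 genes of lung macrophages was compared between 2 groups of mice with opposite alterations of beta-catenin, the transcriptional effector of canonical Wnt signalling. The genes were C1qa, C1qb and C1qc (complement C1q), the scavenger receptor genes Msr1, Marco, Mrc1 and Cd163, the alveolar macrophage genes Plet1 and Chil3, and Csf1r. They were chosen by name, and all 10 were found among the 19937 genes measured, each with 1 probe set on the array. Plet1, Chil3 and Csf1r encode neither scavenger receptors nor complement and are included as macrophage genes.

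The mice were untreated and 21 days old, and total RNA of the whole lung of each was hybridised to 1 microarray. The stabilized group held 4 mice labelled as carrying stabilized beta-catenin, and the knockout group held 4 mice labelled as beta-catenin knockout. The labels record every mouse as male and name neither the altered exons, the Cre driver nor the cells that carried either allele. No unmodified lungs were analysed here, so neither group can be placed relative to an unaltered lung.

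C1q is the recognition subcomponent of the classical complement pathway, built from A, B and C chains with collagen-like stems and globular heads that bind antibody complexes and dying cells. Unlike most complement proteins, which the liver supplies, C1q is made mainly by macrophages and dendritic cells. Scavenger receptors let macrophages take up modified lipoproteins, microbes, glycoproteins and haemoglobin. The lung holds alveolar macrophages, which live on surfactant in the airspace, and interstitial macrophages in the tissue between the airspaces and around vessels.

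Of the 10 genes, 4 were higher and 2 lower in stabilized lungs, and 4 did not pass the test (limma, threshold 0.05 after Benjamini-Hochberg adjustment across the whole array). C1qa, C1qb, Msr1 and Mrc1 rose, Cd163 and Plet1 fell, and C1qc, Marco, Chil3 and Csf1r did not pass. Over all genes 9.62% were called, 4.65% higher and 4.96% lower. The arrays of the groups did not overlap for 4 of the 10 genes, which was also so for 16.9% of all genes. The median difference of the 10 genes was 0.36 on the log2 scale, against -0.0069 over all genes. The 10 genes were picked with earlier results of these data known, so their share of calls is a description. All values below are log2 expression after robust multi-array averaging (RMA), differences are stabilized minus knockout, and errors of differences are limma's standard errors (SE, n = 4 per group).

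**Figure D1:**
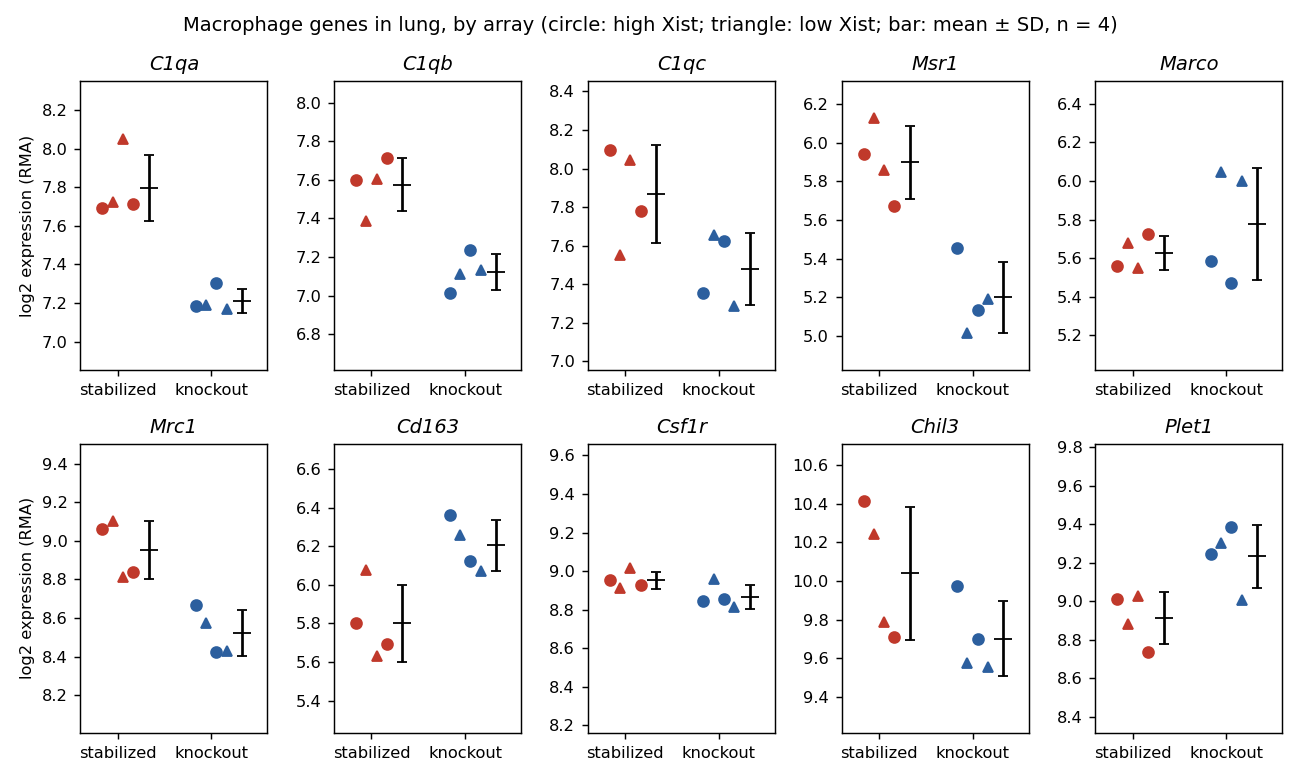
Log2 expression of each of the 10 genes on every array, stabilized on the left and knockout on the right of each panel. Points are arrays (circles for high and triangles for low Xist), bars show the mean ± SD (n = 4), and every panel spans the same range of log2 units. The groups do not overlap for C1qa, C1qb, Msr1 and Mrc1.

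Mean levels of alveolar epithelial and pan-macrophage genes were described for all arrays. No cut-off or comparison tissue was used, so these means do not establish cell identity. The mean log2 level of 10 alveolar epithelial genes was 11.01 to 11.14 in stabilized and 10.86 to 10.91 in knockout lungs, without overlap. Of these, 3 rose, 0 fell (also 0 at an unadjusted p under 0.05) and 7 did not pass, while 5 rose with arrays centred on their medians, with dim genes removed or with eBayes using trend and robust. Lamp3 and Abca3, lamellar body genes of type II cells, rose by 0.55 ± 0.07 and 0.34 ± 0.07, and Sftpd, the gene of surfactant protein D, by 0.46 ± 0.07 (SE, limma), and their part in the results for the 10 genes was not tested. The mean over 21 pan-macrophage genes was 8.79 to 8.95 in stabilized and 8.69 to 8.89 in knockout lungs, so the groups overlapped. Arrays correlated at 0.993 to 0.996 within a group and at 0.987 to 0.993 between groups. Ctnnb1 itself differed by 0.09 ± 0.06 (SE, limma adjusted p = 0.42), which does not check the labels since the altered exons are not given. In each group 2 arrays had Xist, the transcript of the inactive X chromosome of females, above 10 and 2 had it below 5, in spite of the recorded sex. Because lung was measured in bulk, more cells of a type and more RNA per cell cannot be told apart in any value given here.

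C1qa and C1qb, which encode the A and B chains, were higher in stabilized lungs. C1qa lay at 7.69, 7.73, 8.05 and 7.72 in stabilized replicates 1 to 4, against 7.18, 7.19, 7.30 and 7.17 in knockout replicates 1 to 4. The lowest stabilized lung was above the highest knockout lung. The difference of 0.59 ± 0.08 (SE, limma adjusted p = 8.7e-04) was a 1.501-fold change, with a 95% interval of 0.40 to 0.77 on the log2 scale. For C1qb the values were 7.60, 7.39, 7.60 and 7.71 in stabilized and 7.01, 7.11, 7.24 and 7.13 in knockout lungs. The groups were again apart, and the difference of 0.45 ± 0.08 (SE, limma adjusted p = 0.0033) was a 1.37-fold change. Without any 1 array the difference of C1qa was 0.50 to 0.62 and that of C1qb 0.41 to 0.52, and the adjusted p of either stayed at or below 0.014.

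C1qc, the gene of the third chain, pointed the same way without passing the test. It lay at 8.10, 7.55, 8.04 and 7.78 in stabilized lungs, against 7.35, 7.65, 7.62 and 7.29 in knockout lungs. Stabilized replicate 2 fell below knockout replicates 2 and 3, so the groups overlapped. The difference was 0.39 ± 0.12 (SE, limma adjusted p = 0.070, 95% interval 0.12 to 0.66). It passed without stabilized replicate 2 (adjusted p = 0.023) and not without any other single array, and it also passed with arrays centred on their medians and with dim genes removed. The log2 value of C1qa minus that of C1qc was -0.40 to 0.18 in stabilized and -0.46 to -0.12 in knockout lungs, and these ranges overlapped. This difference and the 4 other differences between genes given below were picked after the values were known and carry no test.

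The C1q genes lie side by side on mouse chromosome 4 in the order C1qb, C1qc and C1qa, in the RefSeq gene table of GRCm38.p6. Among the 3 protein-coding genes on either side, 5 were measured and 0 passed the test (limma), with Wnt4 alone at an unadjusted p under 0.05. Epha8, next to C1qa, differed by -0.09 ± 0.07 and Wnt4, a Wnt ligand gene further along, by -0.20 ± 0.06 (SE, limma adjusted p = 0.51 and 0.071). Lactbl1, on the side of C1qb, differed by 0.03 ± 0.08 (SE, adjusted p = 0.86). These neighbours were looked up by gene order and not by their values.

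Promoter windows reach from 250 bases before to 50 bases after the annotated start site. Windows are shown for C1qb and C1qc of the C1q cluster and for Mrc1 and Cd163, which moved in opposite directions. They are RefSeq sequences of GRCm38.p6, for C1qb at chr4:136886151-136886450 and C1qc at chr4:136892865-136893164 (both minus strand), and for Mrc1 at chr2:14229164-14229463 and Cd163 at chr6:124304401-124304700 (both plus strand). Capitals mark matches on either strand to GAGGAAG, a form of the site of the myeloid factor PU.1, or to CTTTGA, the core of the site of TCF/LEF factors through which beta-catenin acts.
C1qb: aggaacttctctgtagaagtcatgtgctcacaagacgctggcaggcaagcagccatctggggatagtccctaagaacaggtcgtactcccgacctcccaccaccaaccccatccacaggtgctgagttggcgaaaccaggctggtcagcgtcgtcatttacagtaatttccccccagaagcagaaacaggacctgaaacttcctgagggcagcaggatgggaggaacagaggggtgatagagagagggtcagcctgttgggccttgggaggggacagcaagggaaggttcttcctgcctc
C1qc: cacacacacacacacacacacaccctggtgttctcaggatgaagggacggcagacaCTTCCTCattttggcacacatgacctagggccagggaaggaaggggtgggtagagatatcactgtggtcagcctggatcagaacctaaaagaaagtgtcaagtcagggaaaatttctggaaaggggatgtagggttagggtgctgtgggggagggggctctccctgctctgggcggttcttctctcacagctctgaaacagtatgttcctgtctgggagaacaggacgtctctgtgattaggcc
Mrc1: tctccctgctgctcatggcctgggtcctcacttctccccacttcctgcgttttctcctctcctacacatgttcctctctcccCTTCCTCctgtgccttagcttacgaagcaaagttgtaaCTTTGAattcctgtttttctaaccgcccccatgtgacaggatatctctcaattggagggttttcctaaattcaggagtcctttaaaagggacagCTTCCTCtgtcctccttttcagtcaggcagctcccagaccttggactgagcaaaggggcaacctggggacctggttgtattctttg
Cd163: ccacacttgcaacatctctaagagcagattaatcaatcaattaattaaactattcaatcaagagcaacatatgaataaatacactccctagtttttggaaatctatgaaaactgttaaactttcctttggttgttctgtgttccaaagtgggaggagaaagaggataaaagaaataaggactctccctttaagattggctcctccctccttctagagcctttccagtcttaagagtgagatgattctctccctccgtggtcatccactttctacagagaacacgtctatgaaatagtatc

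Counted from the start site to the first base of a match, C1qc held a PU.1 match at -194. Mrc1 held PU.1 matches at -168 and -36 and a TCF/LEF match at -130. In C1qb and Cd163 neither run of letters occurs in this window. TGCTGAC, a site of MAF factors, was searched as well and had 0 matches in the 7 windows that were matched to the 10 genes. C1qa, Msr1 and Csf1r had no window here and were not searched. No matches overlapped. Of 32851 promoter windows of this length, 13.6% hold the PU.1 letters, 16.0% the TCF/LEF letters and 4.67% the MAF letters. The PU.1 letters were in 3 of the 7 windows (C1qc, Mrc1 and Marco) and the TCF/LEF letters in 1. A match is a run of letters and does not show binding.

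Msr1, the class A scavenger receptor that takes up modified lipoproteins and bacteria, showed the largest difference of the 10 genes. Its log2 values were 5.94, 6.13, 5.86 and 5.67 in stabilized lungs, against 5.45, 5.01, 5.14 and 5.19 in knockout lungs. Every stabilized lung was above every knockout lung. The difference of 0.70 ± 0.11 (SE, limma adjusted p = 0.0014, 95% interval 0.47 to 0.94) was a 1.63-fold change. It ranged from 0.63 to 0.79 without any 1 array, with an adjusted p of at most 0.0069. These values lie near or under the array medians of 5.97 to 6.03, where background left in a probe set compresses fold changes.

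Marco, a class A scavenger receptor that resident alveolar macrophages of the mouse carry, did not pass the test. It lay at 5.56, 5.68, 5.55 and 5.73 in stabilized lungs, against 5.58, 6.04, 5.47 and 6.001 in knockout lungs. Knockout replicates 2 and 4 were the highest and knockout replicate 3 the lowest of all arrays, so the knockout spread enclosed the stabilized group. The difference was -0.15 ± 0.12 (SE, limma adjusted p = 0.49), with a 95% interval of -0.41 to 0.11. The Marco values, like those of Msr1, lie near or under the array medians of 5.97 to 6.03. As a description, the log2 value of Msr1 minus that of Marco ranged from -0.05 to 0.45 in stabilized and from -1.03 to -0.13 in knockout lungs.

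Mrc1, the mannose receptor CD206, was higher in stabilized lungs. It lay at 9.06, 9.10, 8.81 and 8.84 in stabilized lungs, against 8.67, 8.57, 8.42 and 8.43 in knockout lungs. The groups did not overlap. The difference of 0.43 ± 0.09 (SE, limma adjusted p = 0.0075) was a 1.35-fold change, and it ranged from 0.38 to 0.48 without any 1 array (highest adjusted p = 0.031). Lymphatic endothelium also expresses Mrc1. Of 8 measured lymphatic genes, 2 rose and 1 fell, namely Flt4 at 0.33 ± 0.07, Stab1 at 0.28 ± 0.06 and Lyve1 at -0.32 ± 0.09 (SE). The mean level of that list was 7.37 to 7.53 in stabilized and 7.33 to 7.46 in knockout lungs, and its part in the Mrc1 result was not tested. Of 8 fits with an array removed, 6 lost the Lyve1 call, and that of Stab1 without stabilized replicate 1 (adjusted p = 0.057).

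Cd163, the receptor that clears haemoglobin bound to haptoglobin, was lower in stabilized lungs. Its values were 5.80, 6.08, 5.63 and 5.69 in stabilized lungs, against 6.36, 6.26, 6.13 and 6.07 in knockout lungs. Only stabilized replicate 2 touched the knockout range, at a value within 0.01 of knockout replicate 4. The difference was -0.40 ± 0.10 (SE, limma adjusted p = 0.024), a 1.32-fold change. As for Msr1, the values lie around the array medians of 5.97 to 6.03, where background weighs more. The call was lost in fits lacking stabilized replicate 1, 3 or 4 or knockout replicate 1 or 2, with an adjusted p of at most 0.064, while the difference stayed between -0.50 and -0.35.

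Mrc1 and Cd163 differed in opposite directions between the groups. With group means taken away, they had the highest correlation over the 8 arrays of the 45 pairs among the 10 genes (Pearson r = 0.92), and are described here for that reason. C1qb ran against Cd163 and Msr1 in the same residuals, at r = -0.86 and -0.82, the lowest of the 45 pairs. Mrc1 minus Cd163 was 3.26, 3.03, 3.18 and 3.15 in stabilized replicates 1 to 4, against 2.30, 2.32, 2.30 and 2.35 in knockout replicates 1 to 4. Its SD was 0.10 in stabilized and 0.02 in knockout lungs, smaller than that of Mrc1 (0.15 and 0.12) or Cd163 (0.20 and 0.13) alone. In stabilized lungs the order from high to low was replicate 2, 1, 4 and 3 for both genes. In knockout lungs it was replicate 1 and then 2 for both, and replicates 3 and 4 were lowest, with Mrc1 values less than 0.01 apart.

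**Figure D2:**
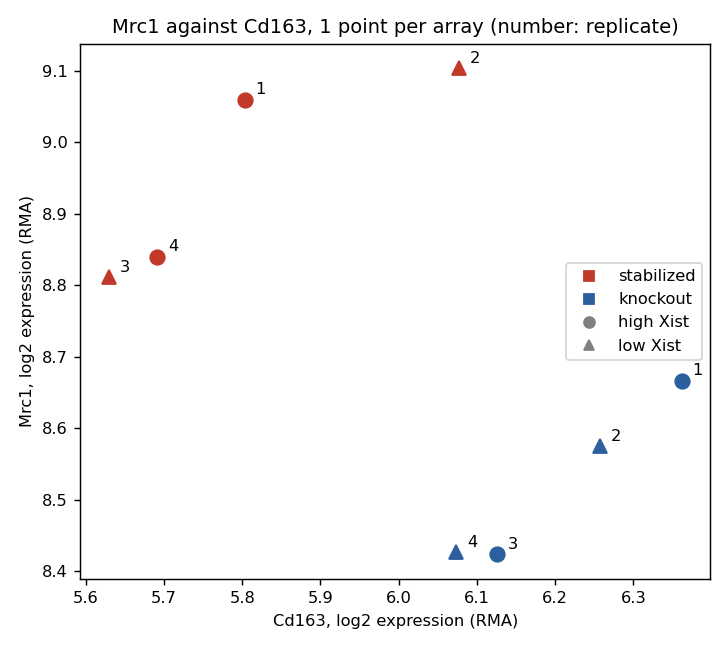
Log2 expression of Mrc1 (vertical) against Cd163 (horizontal), 1 point per array, red for stabilized and blue for knockout, numbered by replicate, with circles for high and triangles for low Xist. Within each group arrays higher for Cd163 tend to be higher for Mrc1, and the stabilized arrays lie above and to the left of the knockout arrays.

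Plet1, a membrane-anchored glycoprotein gene expressed by mouse alveolar macrophages, was lower in stabilized lungs by the narrowest margin. It lay at 9.01, 8.88, 9.03 and 8.74 in stabilized lungs, against 9.24, 9.30, 9.39 and 9.004 in knockout lungs. Knockout replicate 4 lay below stabilized replicates 1 and 3, so the groups overlapped. The difference was -0.32 ± 0.09 (SE, limma adjusted p = 0.049), a 1.25-fold change. Of 8 fits with an array removed, 6 lost the call (limma, highest adjusted p = 0.14). Only those without stabilized replicate 3 or knockout replicate 4 kept it, and centring each array on its median lost it too. Between the same groups 11 of 12 airway club and ciliated cell genes fell, and their part in the Plet1 result was not tested.

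Chil3 encodes the chitinase-like lectin Ym1, a secreted product of alveolar macrophages. Its values were 10.42, 10.25, 9.79 and 9.71 in stabilized lungs, against 9.98, 9.58, 9.70 and 9.55 in knockout lungs. Stabilized replicates 1 and 2 were above all knockout lungs, and the others lay among them. The difference of 0.34 ± 0.15 did not pass the test (SE, limma adjusted p = 0.18, 95% interval 0.02 to 0.66). Chil4, a close relative whose transcripts the probes may not fully tell apart, differed by -0.20 and was not called. Chil3 minus Plet1 was 0.76 to 1.41 in stabilized and 0.28 to 0.73 in knockout lungs. Of the alveolar macrophage genes Marco, Chil3 and Plet1, 1 thus fell and 2 did not pass.

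Csf1r encodes the receptor for CSF1 and IL-34, on which most tissue macrophages depend, and it did not pass the test. It lay at 8.95, 8.91, 9.02 and 8.93 in stabilized lungs, against 8.85, 8.96, 8.85 and 8.81 in knockout lungs. Knockout replicate 2 stood among the stabilized arrays. The difference was 0.08 ± 0.06 (SE, limma adjusted p = 0.43), and its 95% interval of -0.05 to 0.22 lies below the point estimates of the 4 genes that rose. C1qa minus Csf1r was -1.26 to -0.96 in stabilized and -1.76 to -1.55 in knockout lungs.

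**Figure D3:**
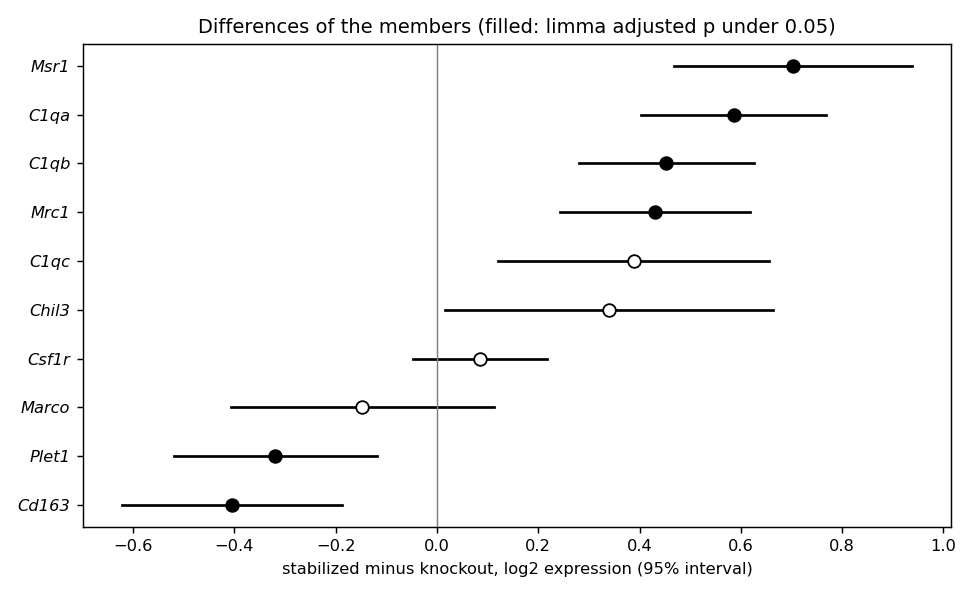
Difference of each gene, stabilized minus knockout, on the log2 scale (points) with 95% intervals of the limma fit (lines, n = 4 per group). Filled points passed at an adjusted p under 0.05. Msr1 lies highest at 0.70 and Cd163 lowest at -0.40.

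Within arrays of like Xist level, 2 against 2 in each case, the genes that passed kept their direction. In the arrays with high and with low Xist the difference was 0.46 and 0.71 for C1qa, 0.53 and 0.37 for C1qb, 0.51 and 0.89 for Msr1, and 0.40 and 0.46 for Mrc1. For Cd163 it was -0.50 and -0.31, and for Plet1 -0.44 and -0.20. Marco differed by 0.11 in arrays with high and by -0.41 in arrays with low Xist, but the interaction had an adjusted p = 0.995 in limma over all genes (unadjusted p = 0.0043), and no interaction of the 10 genes passed.

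Other uptake receptors of macrophages were next compared from a list that leaves out the 10 genes. Among its 29 genes there were 7 that rose, 0 that fell (2 at an unadjusted p under 0.05, 0 in any other setting) and 22 without a call, and the median difference was 0.08. Clec4n (Dectin-2) and Clec7a (Dectin-1), receptors for fungal glycans, rose by 0.96 ± 0.10 and 0.83 ± 0.13 (SE, limma adjusted p = 9.7e-05 and 0.0013). Of 14 neutrophil genes 7 also rose and 1 fell, and their part in the gains of Clec4n and Clec7a was not tested. Mrc2, a collagen-binding relative of Mrc1 that fibroblasts also express, rose by 0.61 ± 0.10, and Colec12, a scavenger receptor of endothelium, by 0.39 ± 0.08 (SE). Mertk, which binds apoptotic cells, rose by 0.31 ± 0.08 (SE, adjusted p = 0.021), and 4 of 8 fits with an array removed did not call it. Without stabilized replicate 1 only 4 of the 29 rose. Cd68 differed by 0.18 ± 0.10 (SE, adjusted p = 0.27).

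Other complement genes were compared from lists as well, against a share of 9.62% called over all genes. Of 13 measured genes that start the classical and lectin pathways, among them C1ra, C1s1, C2 and C4b, 0 rose and 0 fell by limma, and 0 did at an unadjusted p under 0.05 or with an unmoderated linear model. The median was -0.0021. C4b, whose product the C1 complex cleaves, differed by 0.05 ± 0.09 (SE, limma adjusted p = 0.78). Of 9 alternative and terminal pathway genes, C6 rose by 0.99 ± 0.09 and Hc, the gene of C5, fell by 0.85 ± 0.08 (SE, adjusted p = 3.9e-05 and 4.0e-05). C6 and C5 both enter the membrane attack complex, and the other 7 did not pass. Of 18 regulators and receptors, 2 rose and 1 fell. C3ar1, the C3a receptor of myeloid cells, rose by 0.51 ± 0.11, the inhibitory protease gene Cfi rose by 0.41 ± 0.07, and clusterin (Clu) fell by 0.34 ± 0.07 (SE). Cfi lay at 4.90 to 5.02 in stabilized and 4.40 to 4.70 in knockout lungs, under every array median, where background weighs more, and the files give no detection call. These calls held whichever array was removed, and without stabilized replicate 2 a further regulator fell.

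General macrophage genes went both ways. Of 21 pan-macrophage genes 4 rose, 2 fell and 15 did not pass, with a median of 0.08. Adgre1, a classical macrophage surface marker, differed by 0.03 ± 0.11 and Spi1, the gene of PU.1, by -0.13 ± 0.10 (SE, limma adjusted p = 0.89 and 0.47). Lgmn, a lysosomal protease, and the sialic acid receptor Cd33 rose by 0.35 ± 0.06 and 0.35 ± 0.07, while Irf8, a transcription factor of monocytes and dendritic cells, fell by 0.52 ± 0.08 (SE). Laptm5, a lysosomal protein gene of haematopoietic cells, fell by 0.50 ± 0.12 (SE), but not in fits lacking stabilized replicate 2 or knockout replicate 3. In fits lacking stabilized replicate 1, stabilized replicate 2 or knockout replicate 3, 2 of the 21 rose.

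Alveolar and interstitial macrophage genes outside the 10 likewise shared no direction. Of 18 alveolar macrophage genes 1 rose, 2 fell and 15 did not pass, with a median of 0.01. Pparg, the nuclear receptor that sets alveolar macrophage identity, differed by 0.02 ± 0.07, Siglecf by -0.18 ± 0.09, Itgax by 0.01 ± 0.09 and Fabp4 by -0.19 ± 0.17 (SE), and none was called. Ctsk, a protease that fibroblasts also make, rose by 0.75 ± 0.15, and the lipid droplet gene Cidec and the zinc transporter gene Slc39a2 fell by 0.42 ± 0.09 and 0.48 ± 0.12 (SE). Removing 1 array ended the call of Slc39a2 in 4 of 8 cases. Of 20 interstitial macrophage genes 4 rose, 2 fell and 14 did not pass, with a median of 0.02. Fcrls, an Fc receptor-like gene of mouse macrophages and microglia, rose by 0.69 ± 0.12, and the chemokine gene Ccl8 rose by 0.41 ± 0.09 (SE). Fcrls lay at 6.05 to 6.29 in stabilized lungs, just above the array medians. In knockout lungs it lay under them, at 5.08 to 5.75, where background weighs more. Ccl8 lay far under the array medians, at 4.22 to 4.41 in stabilized and 3.67 to 4.12 in knockout lungs, so its expression above background is not shown. Folr2 differed by -0.05 ± 0.10, and Cbr2, an enzyme that club cells also express, fell by 0.27 ± 0.07 (SE), which 5 of 8 fits with an array removed did not call. Without stabilized replicate 1, 2 interstitial genes rose and 0 fell.

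Growth factor signals for macrophages were compared as well. The ligand genes Csf1 and Il34 differed by 0.02 ± 0.07 and 0.21 ± 0.07 (SE, limma adjusted p = 0.90 and 0.090). Csf2, the gene of GM-CSF, which alveolar macrophages need, rose by 0.35 ± 0.08 (SE, adjusted p = 0.012), at values under the array medians (5.49 to 5.81 in stabilized and 5.24 to 5.35 in knockout lungs). Csf2rb and its close copy Csf2rb2, which probes may not fully tell apart, each rose by 0.36, with SE of 0.10 and 0.07, and 6 of 8 fits with an array removed did not call Csf2rb. Of the 15 genes of this list 4 rose, 2 fell and 9 did not pass. The risers included the neutrophil receptor gene Csf3r at 0.73 ± 0.11, and those that fell included the dendritic cell receptor gene Flt3 at -0.49 ± 0.08 (SE).

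Markers of other leukocytes moved between the same groups, and their part in the results for the 10 genes was not tested. Of 14 neutrophil genes 7 rose and 1 fell, with a median of 0.57 and a mean level of 6.02 to 6.19 in stabilized and 5.64 to 5.78 in knockout lungs. Without stabilized replicate 3, 2 neutrophil genes fell. With genes under the median level removed 3 rose and 0 fell, and with an unmoderated linear model 4 rose and 0 fell. Il1b, which macrophages also make, rose by 1.16 ± 0.10 (SE). Of 13 dendritic cell genes 0 rose (also 0 at an unadjusted p under 0.05) and 6 fell, at a mean level of 6.64 to 6.80 in stabilized and 6.94 to 7.27 in knockout lungs. B cell genes fell in 8 of 9 and T and NK cell genes in 11 of 12, with mean levels of 5.34 to 5.45 and 5.96 to 6.24 in stabilized lungs, against 6.19 to 6.54 and 6.88 to 7.58 in knockout lungs. Airway club and ciliated cell genes fell in 11 of 12, at 7.11 to 7.47 in stabilized and 8.38 to 8.87 in knockout lungs. No defining marker is at 0 on this scale, since background keeps every probe set above it.

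**Figure D4:**
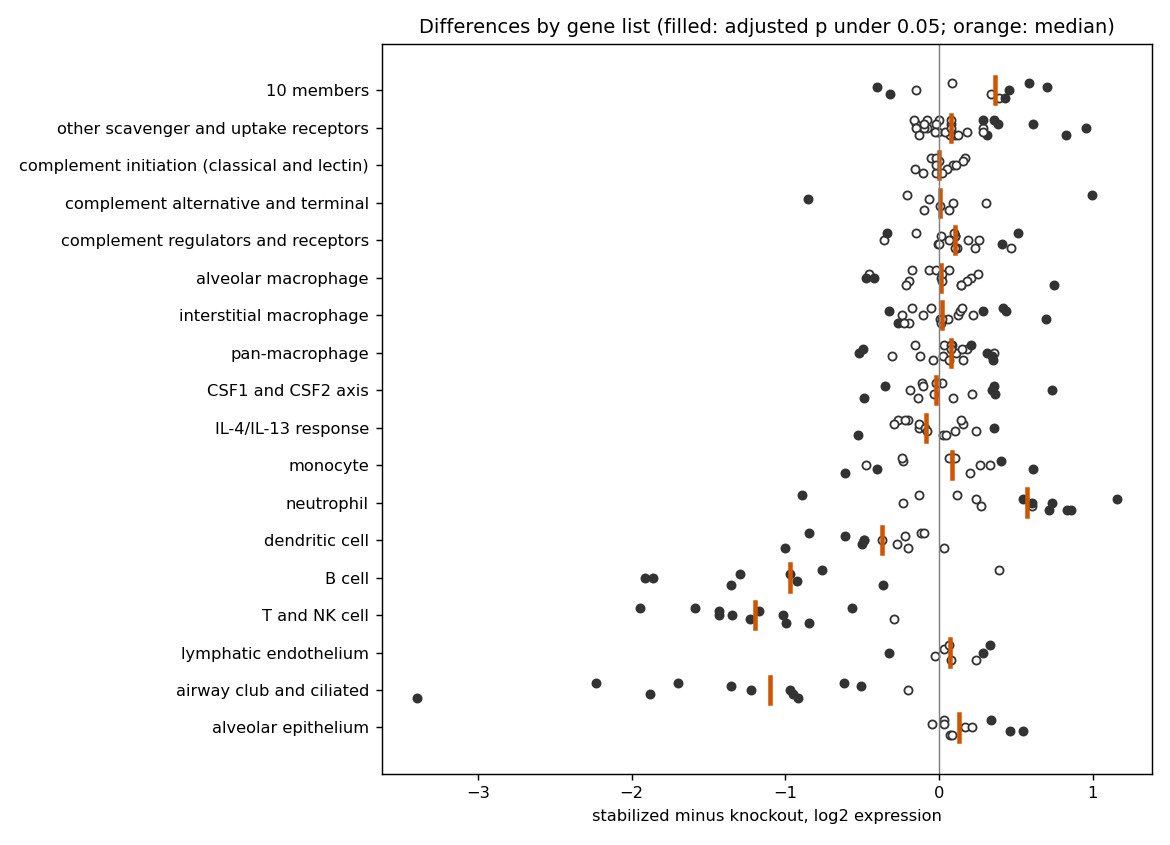
Difference of each gene, stabilized minus knockout, on the log2 scale, for the 10 genes and for each gene list (rows). Filled points passed at an adjusted p under 0.05 and the orange line is the median of the row. Scavenger, complement and macrophage lists have medians near 0, while B cell, T and NK cell and airway lists lie to the left.

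The genes closest to 2 means over the 10 genes were sought over the 8 arrays after each gene's group mean was taken away. For the mean of C1qa, C1qb and C1qc they were Setd1b, Cntfr, Ifngr2, Slc36a1 and Grina (Pearson r of 0.980 to 0.987, Spearman rho of 0.952 to 0.976). For the mean of Marco, Chil3 and Plet1 they were Wdr73, Bcl2l11, Fig4, Pigg and Jchain (r of 0.975 to 0.989, rho of 0.952 to 1). That mean is no shared pattern of its genes, since within groups Marco correlated with Plet1 at -0.61 and with Chil3 at -0.41 (Pearson r, 8 arrays). In the C1q mean, C1qa correlated with C1qb at only 0.23 and with C1qc at 0.42, and C1qb with C1qc at 0.55 (same measure). The genes listed as closest are the highest of the 19937 genes over 8 arrays, once the genes of each mean were left out. Symbols of clones, predicted genes and accessions were left out as well. The correlations describe likeness on these arrays. Between the groups Cntfr fell by 0.48 ± 0.08 and Fig4 rose by 0.51 ± 0.07 (SE), while the other 8 did not pass.

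**Figure D5:**
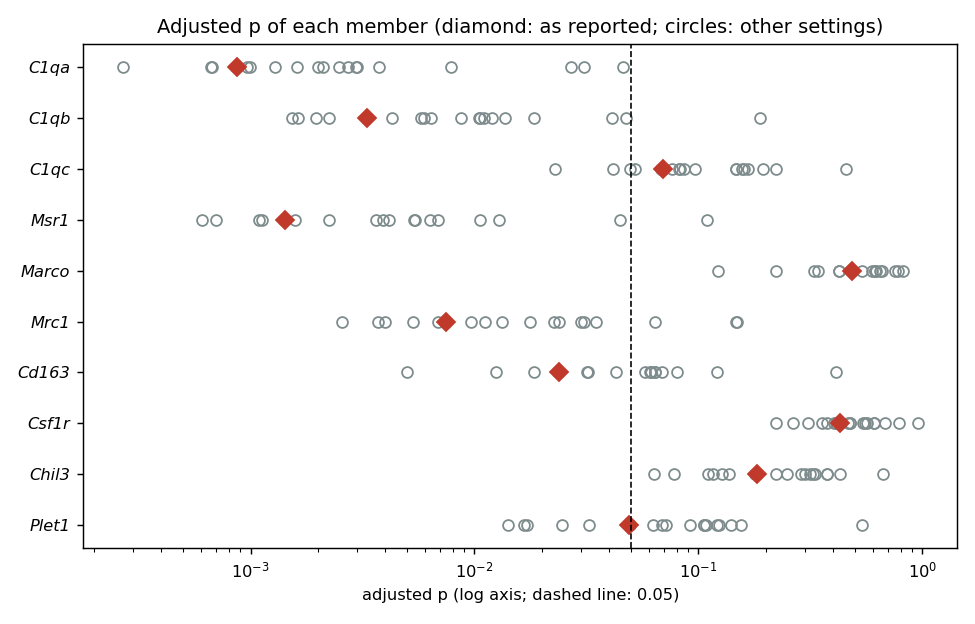
Adjusted p of each of the 10 genes on a log axis, as reported (diamonds) and under the other settings tried (circles), with a dashed line at 0.05. C1qa stays to the left of the line under every setting, and Marco, Csf1r and Chil3 stay to the right. C1qb, C1qc, Msr1, Mrc1, Cd163 and Plet1 fall on both sides. Of these, C1qb, Msr1 and Mrc1 lie mostly to the left and C1qc mostly to the right.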

How the data were processed

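Whole-lung total RNA of 8 mice was hybridised to Affymetrix whole-transcript arrays. Per the labels' protocols RNA was column-purified and made into biotinylated cRNA, and the submitters' processing notes name RMA and affy. The deposited values are log2 expression, 1 per probe set and array, background-corrected, quantile-normalized and summarised by the authors. Quantile normalization hides a change in total RNA. Arrays carry no read depth, and 4 arrays per group limit precision.

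Of 34760 probe sets, 21640 carried a single gene symbol and were used, while 1321 with several symbols and 11799 outside the annotation were left unnamed. Each gene took its probe set with the highest mean, giving 19937 genes, fitted with limma 3.58.1 (R 4.3.3, lmFit and eBayes, no covariate, no filter). A gene was called at an adjusted p under 0.05.

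The members and the 17 lists (259 entries, 10 not matched to a measured gene) were chosen with earlier results of these data known. Named genes were the members, genes fixed by name, up to 4 called genes with the smallest p per list, and the 5 genes most like each of 2 means over members. Chil4, Lactbl1, Epha8 and Wnt4 were added outside this rule. The fit was tested on simulated data. Deviations of same-numbered arrays from their group means correlated at -0.0051 to 0.08, so replicate numbers were not taken as pairs.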

Additional observations from a re-analysis of the deposited data

Results flagged for a closer look

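C1qa in stabilized replicate 3 lay at 8.05, far above the other stabilized lungs at 7.69 to 7.73, so that the gap to the nearest lung made up 0.912 of the group's range. C1qa in knockout replicate 3, at 7.30, stood above the other knockout lungs by 0.830 of that group's range, just past the 95% limit of Dixon's test for 4 samples. Chance marks about 1 in 20 groups in this way, and 20 groups were looked at. Without stabilized replicate 3 the difference of C1qa was 0.50 (limma adjusted p = 9.6e-04), and without knockout replicate 3 it was 0.62 (adjusted p = 0.0025).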

How the results depend on the processing

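The 10 genes were recomputed under 19 other settings, which gave 187 values because Msr1, Marco and Cd163 lie under the level required when only genes at or above the median level are kept. Of these, 156 kept their direction and their side of the threshold, 27 lost a call, 3 gained one and 1 turned its direction, namely Marco at 0.11 in arrays with high Xist. C1qa passed in all 19 settings, C1qb in 18 of 19, Msr1 in 17 of 18 and Mrc1 in 16 of 19, against 8 of 18 for Cd163 and 7 of 19 for Plet1. Fewer members were lower with arrays centred on their medians, with repeated quantile normalization, with dim genes removed and with Xist as a covariate (1 each) and with all probe sets tested (0). With arrays of high Xist alone 670 genes, 50 list genes and 2 members (2 higher, 0 lower) were called, and with low Xist alone 354 genes, 39 list genes and 2 members (2 higher, 0 lower), from 2 arrays per group. An unmoderated linear model called 896 genes, 46 list genes and 3 members, 0 of them lower. With 1 array left out 1216 to 1839 genes, 4 to 6 members, 4 to 5 higher members, 0 to 2 lower members and 70 to 83 list genes were called, against 1917, 6, 4, 2 and 82 with all arrays. The lowest gene counts came without stabilized replicate 1 (1216) and knockout replicate 3 (1235). After centring 64.4% of called genes were higher, against 48.4%. The array medians that centring removes were 5.97 to 5.98 in stabilized and 6.01 to 6.03 in knockout lungs, without overlap. With the replicate block, which is not supported as a pairing, 1828 genes and 6 members were called. Causes of these shifts, including the smaller number of arrays or genes in some settings, were not tested.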

Other observations

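Monocyte genes and genes of the response to IL-4 and IL-13 were compared from lists as well. Of 12 monocyte genes 2 rose and 2 fell, with a median of 0.09. Fn1, which encodes fibronectin and is also made by fibroblasts and alveolar macrophages, rose by 0.61 ± 0.08, and F10, the gene of coagulation factor X, rose by 0.40 ± 0.06 (SE, n = 4 per group). Spn and Plac8 fell by 0.41 ± 0.09 and 0.61 ± 0.15 (SE), and 5 of 8 fits with an array removed did not call Plac8. Without knockout replicate 4, 4 monocyte genes fell, and 1 fell without stabilized replicate 1, 2 or 4 or knockout replicate 1 or 3. Of 16 genes of the IL-4 and IL-13 response 1 rose and 1 fell, with a median of -0.08. These were Clec10a at 0.36 ± 0.10 and the chemokine gene Ccl22 at -0.53 ± 0.14 (SE), with Clec10a at 5.28 to 5.78 in stabilized and 5.05 to 5.23 in knockout lungs, under the array medians, and at least 5 of the 8 fits with an array removed did not call either.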
